A study of Mus musculus with 20 samples.

Results

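RNA helicases and the subunits of the CCR4-NOT complex were followed here through 20 RNA-seq libraries of the female mouse preoptic area, where many of the neurons that make gonadotropin-releasing hormone (GnRH) have their cell bodies. The genes were chosen by symbol alone: every Ddx or Dhx gene with a number and every numbered Cnot gene, leaving out Ddx3x and Ddx3y. The rule found 61 of the 19269 genes in the table, which were 36 Ddx, 16 Dhx and 9 Cnot genes. Cnot1, Cnot2, Cnot3, Cnot4, Cnot6, Cnot6l, Cnot7, Cnot8 and Cnot10 were the subunits found; Rqcd1, the older symbol of the Cnot9 gene, did not match the rule. In each of the fits 60 of the 61 passed the filter on low counts, and Ddx43, a germ line helicase gene, did not.

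RNA helicases use ATP to remodel RNA and RNA-protein complexes, and the DEAD-box and DEAH-box families are named after a short conserved motif in their ATPase core. They act at nearly every step in the life of an RNA, in transcription, splicing, export, ribosome assembly, translation and decay. CCR4-NOT is the main complex that shortens the poly(A) tails of mRNAs in the cytoplasm: its exonucleases sit on the scaffold protein CNOT1, to which adaptor proteins and the helicase DDX6 also bind.

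Libraries came from translating ribosome affinity purification: an antibody against GFP pulls down ribosomes whose L10a protein carries the tag, and the mRNA bound to them is sequenced. In GnRH CRE x Floxed L10a-GFP mice the tag is made in GnRH neurons. Each pool held preoptic punches of 3 to 4 female mice, at days 70 to 150 in diestrus (adult) or at day 21 (young). The GFP-positive adult pool, GnRH CRE x Floxed L10a-GFP, gave 1 immunoprecipitate (IP) and 1 supernatant. The untagged adult pools 1 and 2 were GnRH CRE only, the untagged young pools 1 and 2 were Wild Type, and the untagged young pool 3 was Floxed L10a-GFP only. Each untagged pool gave a nonspecific IP and a depleted supernatant. Supernatants of 4 GnRH CRE x Floxed L10a-GFP pools of an earlier series, adult pools 3 and 4 and young pools 1 and 2, were present as a repeat library and an earlier-series library, which the labels call technical replicates. Whether new RNA, a new library or only new reads made the repeats is not given in the sources used here. Age and genotype changed together among the untagged pools, so their effects cannot be told apart there. With the GFP-positive pool added, still no genotype of these new pools occurred at both ages. In these bulk samples fewer cells of a type and less RNA per cell cannot be told apart either.

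Libraries held 27745296 to 50517581 counts. Levels are given as CPM, the counts of a gene scaled to a common library total, and 3 counts, taken as the floor of detection, came to 0.0594 to 0.108 CPM. The GFP-positive IP had 1460 CPM of Gnrh1, while the 5 untagged IPs had 7.85 to 33.5 CPM. None of 8 preoptic marker genes was at 0 throughout a group. Levels were scaled with TMM over all 20 libraries. Fold changes and adjusted p-values come from the quasi-likelihood test of edgeR, fitted over all genes that passed the filter and adjusted by Benjamini-Hochberg, with a threshold of 0.05.

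The codons for Asp-Glu-Ala-Asp, the motif that gives the DEAD-box family its name, lay in frame in 27 of the 36 Ddx genes, in 1 of the 16 Dhx genes (Dhx29) and in none of the 9 Cnot genes. Among all 21866 protein-coding genes of the GENCODE vM21 annotation 163 held them, or 0.75%. The codons for Asp-Glu-Ala-His were found in 8 of the 16 Dhx genes, in Ddx11 and in 0.34% of all coding genes. The stretches below are 48 coding bases each (GRCm38 transcripts, written 5′ to 3′ on the coding strand) with the motif codons in capitals. They are shown for 3 genes with these codons that stood highest in the untagged IP among those past the threshold, for the 2 well expressed ones past it that stood lowest there, for the splicing helicase Ddx23 that separated the repeat libraries, and for Dhx16 as a DEAH-box gene.
Ddx26b: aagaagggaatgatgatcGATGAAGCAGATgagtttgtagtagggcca
Ddx24: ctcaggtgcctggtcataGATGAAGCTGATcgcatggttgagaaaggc
Ddx6: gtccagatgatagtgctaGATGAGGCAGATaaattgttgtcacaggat
Ddx25: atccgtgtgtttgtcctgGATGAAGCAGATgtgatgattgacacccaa
Ddx47: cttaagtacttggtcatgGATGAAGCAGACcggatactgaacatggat
Ddx23: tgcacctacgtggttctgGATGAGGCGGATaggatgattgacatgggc
Dhx16: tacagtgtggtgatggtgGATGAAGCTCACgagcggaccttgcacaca
The capitals encode Asp-Glu-Ala-Asp in the first 6 genes and Asp-Glu-Ala-His in Dhx16, and the bases around them differ. The same stretch was identical in Ddx19a and Ddx19b, neighbouring mRNA export helicases, so reads of these paralogs may not have been told apart and their values are uncertain. Ddx26b carries the newer symbol Ints6l in the annotation, as a relative of Integrator complex subunit 6. It is counted among the helicases here by its older symbol alone. Its motif starts at codon 596 of 861, and the presence of these codons does not show a helicase core.

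The most abundant members per length were helicases of general RNA metabolism and the small deadenylases. Over the supernatants of 10 pools (SD, n = 10, both ages), CPM per kb of the longest annotated transcript was 78.1 ± 10 for Ddx5, a cofactor in transcription and splicing, 68.3 ± 8.63 for Ddx24, a nucleolar helicase, and 58.2 ± 4.75 for Ddx39b, which joins splicing to mRNA export. The ranges of Ddx5 and Ddx24 over the pools overlapped (66.1 to 97.4 and 55.9 to 86.1 CPM per kb), as did those of Ddx24 and Ddx39b (50.6 to 66.8 CPM per kb for Ddx39b). At the other end were Ddx43 (0.0329 CPM per kb), the antiviral Ddx60 (0.0567), the germ line helicase Ddx4 (0.227) and the DNA helicase Ddx11 (0.239), which is known for its work in sister chromatid cohesion. The RNA sensors Ddx58, which encodes RIG-I, and Dhx58 stood at 0.823 and 1.11 CPM per kb.

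Within CCR4-NOT the transcripts of the exonucleases were the most and the least abundant per length. Cnot8 stood at 52.3 ± 2.81 and Cnot7 at 45.1 ± 4.92 CPM per kb, and their ranges overlapped (48 to 57.2 and 38.3 to 51.5). Cnot2 followed at 26.1 ± 2.75 CPM per kb. Cnot10, Cnot4 and Cnot3 (15.2, 14.7 and 14.5 CPM per kb) lay within each other's spread. Cnot6 was at 8.08 ± 0.878, the scaffold Cnot1 at 3.82 ± 0.424 and Cnot6l at 2.52 ± 0.373 CPM per kb, with no overlap between these 3 (6.75 to 9.83, 3.12 to 4.56 and 1.74 to 2.93). These values come from the new and the repeat libraries. In the earlier-series libraries Cnot6 had 18.1 to 22.4 CPM on 5736 bases and Cnot1 25.3 to 33.7 CPM on 8390 bases. Per length the ranges of these 2 genes overlapped there, so their order depends on the set. CNOT7 and CNOT8 form one pair of closely related deadenylases and CNOT6 and CNOT6L the other, and a complex is known to hold 1 of each pair.

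The first comparison asked which members an IP without tagged ribosomes recovers, relative to the supernatant of the same tissue. Cnot6 and Cnot6l, Ddx6, Dhx9, Ddx24 and Ddx26b were higher in the IP by 1.89-fold to 2.94-fold. Ddx25 and Cnot7 were lower, and most ribosome assembly and splicing helicases did not pass the test. In all, 11 of 60 members were higher (18.3%) and 6 lower (10%), against 15.8% and 16.2% of the 16361 genes tested. Either way 17 members (28.3%) passed, against 32.1% of all genes. The members' median log2 fold change was 0.00, against -0.03 over all genes. In 15 members every IP lay beyond every supernatant, while 24% of all genes did the same.

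**Figure D1:**
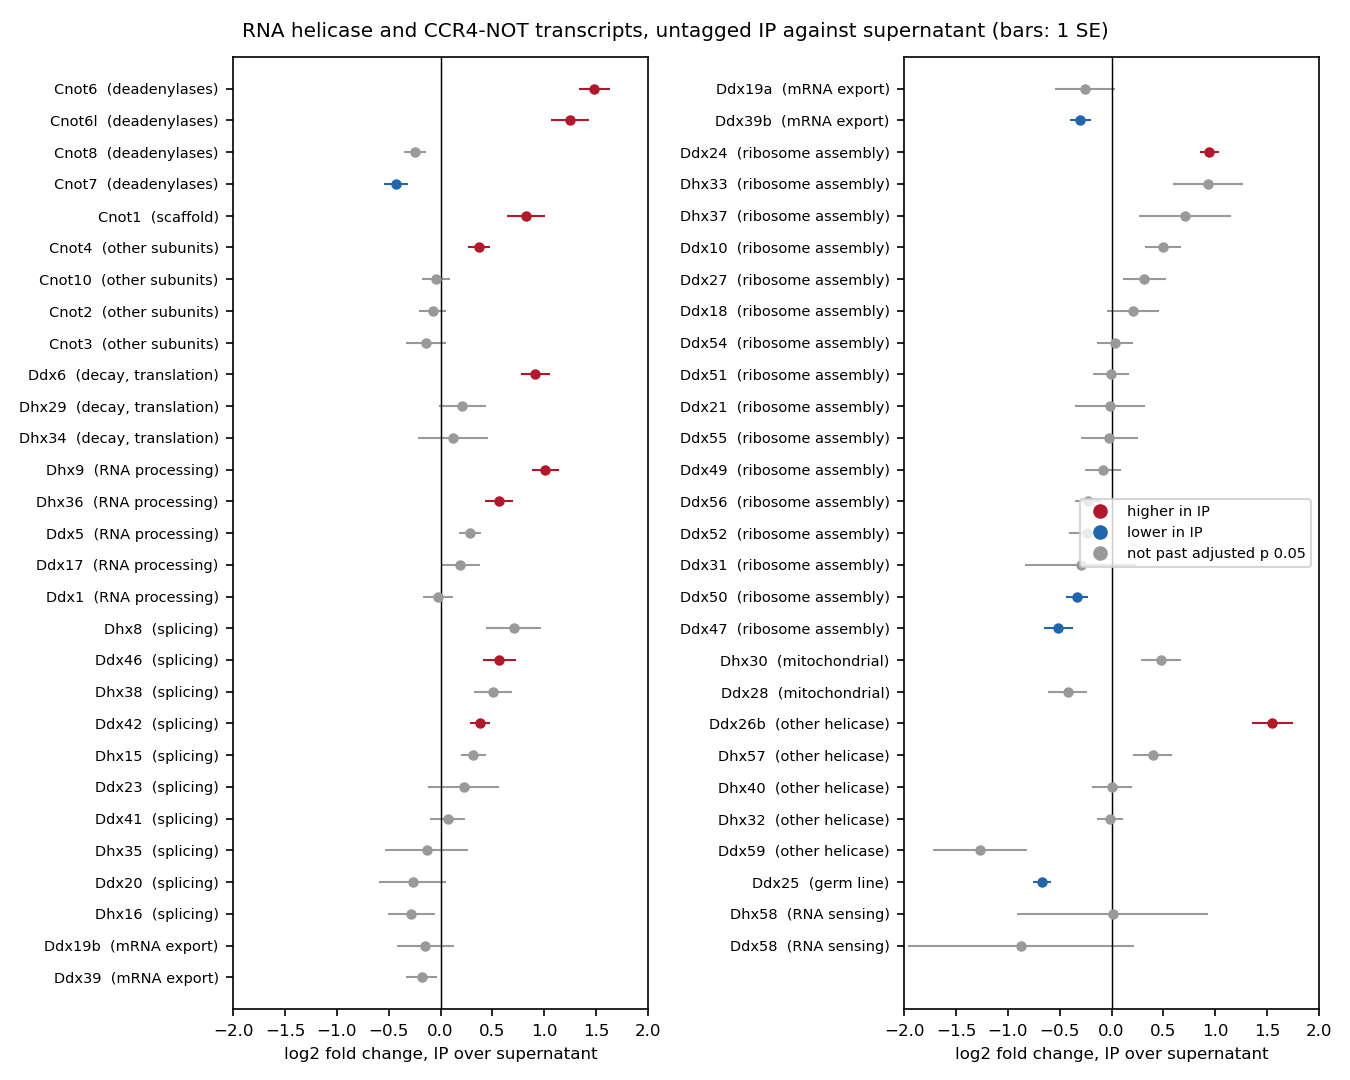
Log2 fold change (x axis) with 1 SE of 57 members in the untagged IP over the supernatant of 5 pools, grouped by role and ordered by size within a role. Red and blue points passed an adjusted p of 0.05; Ddx4, Ddx11 and Ddx60, whose fitted values rest on few counts, are left out.

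Of the deadenylases, Cnot6 and Cnot6l were higher and Cnot7 was lower, while Cnot8 did not pass. Cnot6 had 155 and 120 CPM in the adult untagged IPs and 143, 170 and 107 CPM in the young ones, against 51.3 and 56.4 CPM in the adult supernatants and 42.5, 42.4 and 46.9 CPM in the young ones. Each IP lay above each supernatant (2.80-fold, log2 1.49, SE 0.15, adjusted p = 5.98e-05). Cnot6l had 58.3 and 36.7 CPM in the adult untagged IPs and 50, 67.0 and 68.6 CPM in the young ones, against 20.2 and 24.9 CPM in the adult supernatants and 18.5, 24.7 and 23.2 CPM in the young ones. Here too the fractions did not overlap (2.38-fold, log2 1.25, SE 0.18, adjusted p = 0.000586).

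Cnot7 had 87.8 and 99.0 CPM in the adult untagged IPs and 131, 106 and 89.9 CPM in the young ones, against 126 and 114 CPM in the adult supernatants and 140, 154 and 145 CPM in the young ones. Its IP values were lower within each pool, but young IP 1 lay above both adult supernatants, so the groups overlapped (0.744-fold, log2 -0.43, SE 0.12, adjusted p = 0.0175). Exons of Cnot7 overlap those of Zdhhc2 on the opposite strand by up to 247 bases, and with no strand setting given the reads cannot be told apart. Cnot8 averaged 94.8 ± 11.1 CPM in the untagged IPs and 109 ± 5.43 CPM in the supernatants (SD, n = 5 each), lower in all 5 pools, and did not pass the adjusted threshold (log2 -0.25, SE 0.11, adjusted p = 0.114).

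Among the other subunits, the scaffold Cnot1 and the ubiquitin ligase Cnot4 were higher in the IP. Cnot1 had 58.7 and 39.2 CPM in the adult untagged IPs and 51.3, 46.4 and 75.7 CPM in the young ones, against 26.1 and 32.0 CPM in the adult supernatants and 27.4, 29.8 and 32.2 CPM in the young ones. The lowest IP value exceeded the highest supernatant value (1.77-fold, log2 0.82, SE 0.18, adjusted p = 0.00623). Cnot4 averaged 65.2 ± 6.78 CPM in the IPs and 50.3 ± 3.33 CPM in the supernatants, a small difference without overlap (1.29-fold, log2 0.37, SE 0.11, adjusted p = 0.0241).
Cnot2 and Cnot3, which bind each other and the end of CNOT1, and Cnot10, which binds its other end, did not pass. Their values were log2 -0.08 (SE 0.13) for Cnot2, log2 -0.14 (SE 0.19) for Cnot3 and log2 -0.04 (SE 0.13) for Cnot10. Of the 9 subunits that the symbol rule found, 4 were higher and 1 lower, with a median of -0.04. Of all genes 15.8% were higher and 16.2% lower. Exon overlap with an antisense gene was annotated for 16 members, Cnot1, Cnot2 and Cnot3 among them.

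**Figure D2:**
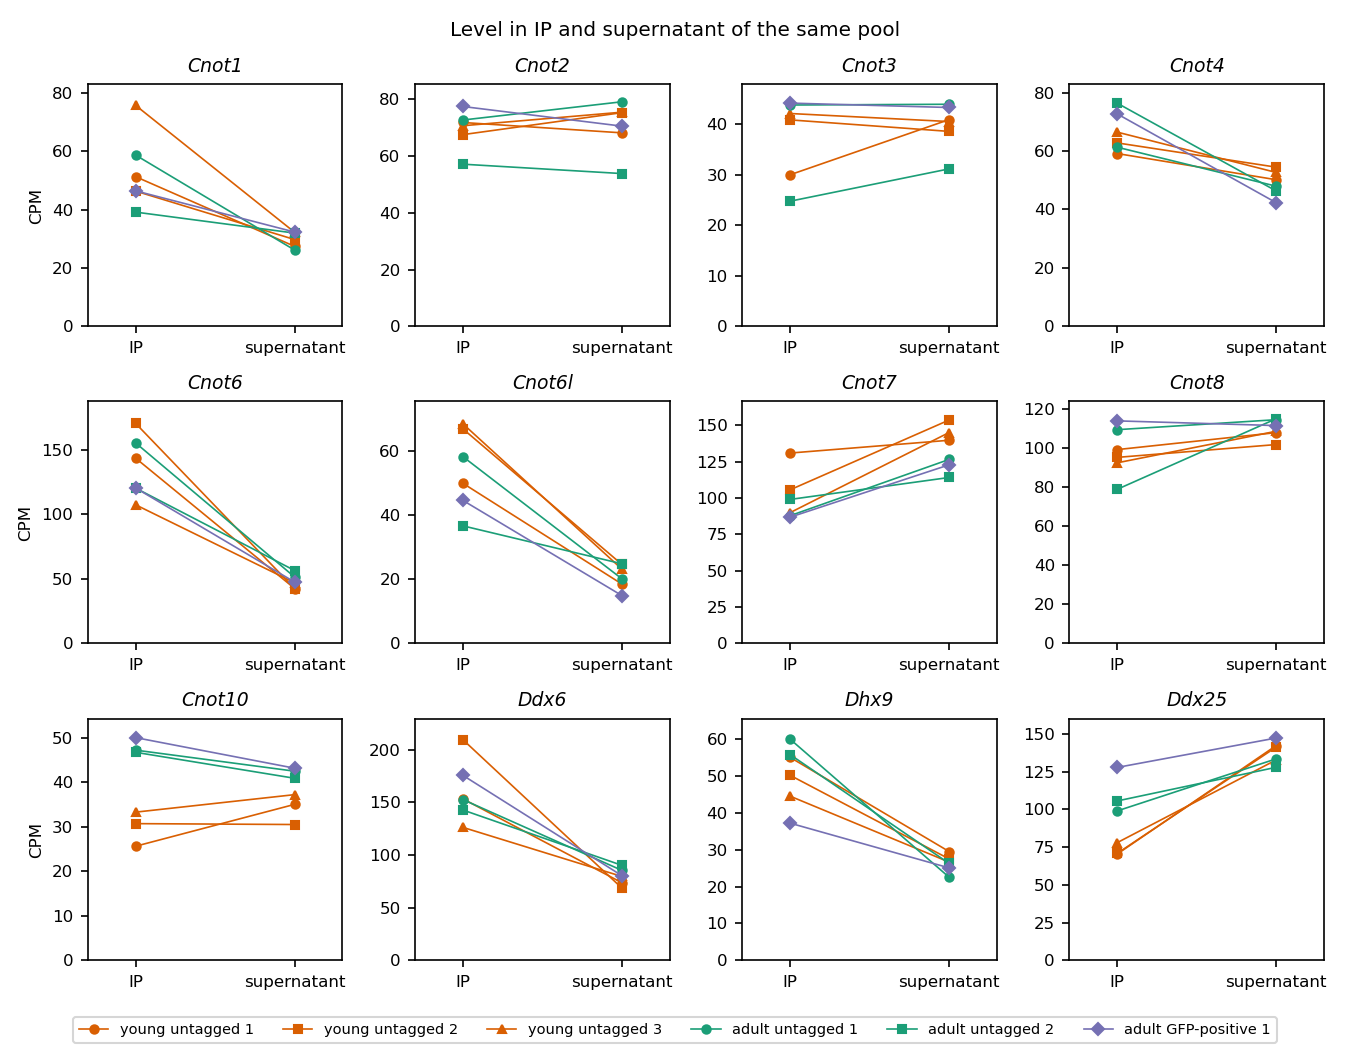
CPM (y axis, from 0) of the 9 CCR4-NOT subunits and of Ddx6, Dhx9 and Ddx25 in the IP (left) and the supernatant (right), with a line for each of 5 untagged pools and the GFP-positive pool. Lines of Cnot6, Cnot6l, Ddx6 and Dhx9 fall to the right in all 6 pools, and those of Cnot7 and Ddx25 climb in all 6.

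Of the 3 helicases grouped under decay and translation, Ddx6 was higher in the IP. DDX6 binds CNOT1, represses translation and is a core protein of P-bodies. Ddx6 had 153 and 143 CPM in the adult untagged IPs and 153, 210 and 126 CPM in the young ones, against 85.5 and 90.3 CPM in the adult supernatants and 73.8, 68.7 and 79.7 CPM in the young ones. The fractions did not overlap (1.89-fold, log2 0.92, SE 0.14, adjusted p = 0.000812). Dhx29, which helps the small ribosomal subunit scan structured leaders, and Dhx34, which acts in nonsense-mediated decay, gave log2 0.21 and 0.12 and did not pass.

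Dhx9 and Dhx36 rose among the 5 genes of transcription and RNA processing. Dhx9 encodes a helicase of structured and double-stranded RNA. It had 59.9 and 55.7 CPM in the adult untagged IPs and 55.0, 50.1 and 44.5 CPM in the young ones, against 22.5 and 26.3 CPM in the adult supernatants and 29.5, 27.5 and 26.6 CPM in the young ones. All IPs were above all supernatants (2.02-fold, log2 1.01, SE 0.13, adjusted p = 0.000237). Dhx36, whose protein unwinds G-quadruplexes, had 114 and 172 CPM in the adult untagged IPs and 125, 95.8 and 99.5 CPM in the young ones, against 76.5 and 89.2 CPM in the adult supernatants and 82.9, 82.9 and 75.1 CPM in the young ones. The lowest IP, young 2, was just above the highest supernatant, adult 2 (1.48-fold, log2 0.56, SE 0.13, adjusted p = 0.00867). Ddx5 (log2 0.29, SE 0.11, adjusted p = 0.0628), its paralog Ddx17 (log2 0.19) and Ddx1 (log2 -0.02) did not pass; with the pool as a block Ddx5 did (log2 0.28, adjusted p = 0.0274).

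Ddx24 and Ddx26b were the other clear rises. Ddx24 had 406 and 373 CPM in the adult untagged IPs and 402, 346 and 404 CPM in the young ones, against 204 and 213 CPM in the adult supernatants and 213, 174 and 171 CPM in the young ones. The lowest IP, of 346 CPM, was well above the highest supernatants, of 213 CPM (1.92-fold, log2 0.94, SE 0.09, adjusted p = 5.34e-05). Ddx26b had 19.9 and 20.9 CPM in the adult untagged IPs and 20.1, 17.2 and 24.1 CPM in the young ones, against 8.11 and 7.47 CPM in the adult supernatants and 5.89, 6.54 and 5.43 CPM in the young ones. That was the steepest rise among the members (2.94-fold, log2 1.55, SE 0.20, adjusted p = 0.000273), at a lower level.

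The ribosome assembly helicases, which act in the nucleolus on ribosomal RNA precursors, had 1 of 16 higher (Ddx24) and 2 lower, with a median of -0.01. These shares, 6.25% and 12.5%, stood beside 15.8% and 16.2% of all genes. Ddx47 had 52.2 and 33.6 CPM in the adult untagged IPs and 43.6, 42.4 and 52.6 CPM in the young ones, against 59.2 and 58.7 CPM in the adult supernatants and 63.1, 66.8 and 66.7 CPM in the young ones. No IP reached the lowest supernatant (0.701-fold, log2 -0.51, SE 0.14, adjusted p = 0.0193). Ddx50 was lower with overlap (log2 -0.33, SE 0.11, adjusted p = 0.0396), and with the pool as a block its adjusted p was 0.0539. Dhx33 (log2 0.93, SE 0.34, adjusted p = 0.0572) passed with that block (log2 0.97, adjusted p = 0.0459).

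Splicing helicases had 2 of 10 higher, none lower and a median of 0.27. Of all genes 15.8% were higher and 16.2% lower, with a median of -0.03. Ddx42 had 98.3 and 94.1 CPM in the adult untagged IPs and 82.0, 83.3 and 73.9 CPM in the young ones, against 67.2 and 73.4 CPM in the adult supernatants and 64.4, 59.8 and 60.2 CPM in the young ones. Each IP was above each supernatant, if only just (log2 0.38, SE 0.10, adjusted p = 0.0118). Ddx46 was higher with overlap (1.48-fold, log2 0.57, SE 0.16, adjusted p = 0.0208); both proteins are known from the U2 snRNP. Dhx8, which releases the spliced mRNA from the spliceosome, missed the threshold (log2 0.71, SE 0.27, adjusted p = 0.0672) and passed with the pool as a block (log2 0.67, adjusted p = 0.0386). Of the 4 export helicases 1 was lower, Ddx39b (log2 -0.30, SE 0.10, adjusted p = 0.0451), with overlap between the fractions.

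Ddx25 was the clearest decrease among well expressed members. It encodes a helicase known from the testis, and in the supernatants of the 10 pools it stood at 20.2 ± 1.26 CPM per kb. Ddx25 had 99.0 and 106 CPM in the adult untagged IPs and 70.4, 70.9 and 78.0 CPM in the young ones, against 134 and 128 CPM in the adult supernatants and 142, 141 and 133 CPM in the young ones. Both ages were below their supernatants without overlap (0.628-fold, log2 -0.67, SE 0.08, adjusted p = 0.000227). Ddx11 had 10 counts in the 5 IPs, against 216 counts in the 5 supernatants. Per count sequenced in each fraction, that is a ratio of 0.0415 (exact 95% interval 0.0196 to 0.0778, for counting error only). It rests on summed counts, leaves out the spread between pools and is not read as a fold change.
Dhx30, a mitochondrial ribosome helicase (log2 0.47, SE 0.19, adjusted p = 0.0904), and Ddx59 (log2 -1.27, SE 0.45, adjusted p = 0.0543) did not pass, and did with the pool as a block (Dhx30 log2 0.44, adjusted p = 0.0112; Ddx59 log2 -1.49, adjusted p = 0.0381). Neither RNA sensor passed (Ddx58 log2 -0.87, SE 1.09; Dhx58 log2 0.01, SE 0.92), which at their low counts leaves wide errors.

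How far single libraries carried these calls was uneven. In every fit that left out 1 of the 10 libraries, 9 of the 17 calls remained: Cnot1, Cnot6, Cnot6l, Ddx6, Ddx24, Ddx26b and Dhx9 as higher, Ddx11 and Ddx25 as lower. Without adult supernatant 1 the counts were 7 higher and 2 lower, and Cnot4, Cnot7, Ddx39b, Ddx42, Ddx46, Ddx47, Ddx50 and Dhx36 were lost. Of the other calls, Ddx39b or Ddx50 or both were lost in each of the fits, and Cnot4 and Ddx46 were lost without young supernatant 1 or 2 and without adult IP 2. Cnot4 and Ddx47 were also lost without adult supernatant 2, and Cnot7 without adult IP 1.

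The GFP-positive pool, which took no part in that fit, gave a further ratio of IP to supernatant. All 11 higher members were above 1 in it, and 4 of the 6 lower members below 1, the exceptions being Ddx39b and Ddx47. Over all genes the corresponding shares were 91.8% of the higher and 85.5% of the lower ones. Its log2 ratios were 1.58 for Cnot6l, 1.34 for Cnot6, 1.13 for Ddx6, 1.07 for Ddx24, 0.57 for Dhx9 and 0.45 for Ddx26b. For Cnot7 it was -0.50 and for Ddx25 -0.20. The ratio of Ddx26b was below those of all 5 untagged pools, which ran from 1.29 to 2.15.

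Transcript length moved with the ratio of IP to supernatant. Over 14152 genes with a mean log2 CPM of at least 0 the rank correlation of the log2 fold change with the length of the longest transcript was 0.53, and over 57 members it was 0.501, a description across genes that share the same libraries. Members were longer than most, with a median of 3516 bases against 3049 over the genes tested. Genes were split by length into 4 bands. In the longest band, from 4565 bases up, 7 of 18 members were higher, against 41% of all genes in it. In the band from 1932 to 3049 bases none of 20 members was higher and 3 were lower, against 8.87% and 17.9% of all genes in it. Cnot6l (8564 bases), Cnot1 (8390), Ddx6 (6065), Cnot6 (5736) and Dhx36 (5620) are long, whereas Cnot7 (2982) and Cnot8 (2099) are short.

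With the length trend of each library removed, a choice made after seeing the data, 4 members were higher and 4 lower. The share of all genes in that fit is not set beside these counts, so they describe the members alone. Cnot6 (log2 1.03, adjusted p = 0.000959), Dhx9 (0.73, 0.00352), Ddx24 (0.91, 0.000111) and Ddx26b (1.41, 0.00077) remained higher. Cnot7 (log2 -0.44, adjusted p = 0.0175), Ddx47 (-0.58, 0.0122) and Ddx25 (-1.31, 9.51e-06) remained lower. Ddx11 also passed as lower (adjusted p = 0.00343), but its IP counts are too few for a fold to be read. Ddx25 has 6934 bases, and its decrease was larger with the trend removed. The other 9 calls ended: Cnot6l (log2 0.46, adjusted p = 0.104), Ddx6 (0.40, 0.0714), Cnot4 (0.28, 0.0924), Ddx42 (0.20, 0.196), Ddx46 (0.11, 0.687), Dhx36 (0.12, 0.61), Cnot1 (0.04, 0.913), Ddx50 (-0.25, 0.111) and Ddx39b (-0.29, 0.0682). The part of length in the differences was not tested beyond this fit.

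Proteins that work with CCR4-NOT in mRNA decay were looked at beside it. Of 34 decay partners, 19 were higher in the untagged IP and 1 lower, with a median of 0.75, beside 15.8% higher, 16.2% lower and a median of -0.03 over all genes. With the length trend removed 10 were higher and 1 lower. Among the steepest were Tnrc6a, which encodes the GW182 protein that ties microRNA complexes to CNOT1, at log2 2.55, SE 0.20, and the antiproliferative Btg2, which binds the CNOT7 pair, at log2 2.55, SE 0.17. Lsm1, part of the ring that binds shortened tails before decapping, was the single decrease (log2 -0.51, SE 0.16). Of 17 RNA helicases outside the Ddx and Dhx names 7 were higher and 2 lower, with a median of 0.58: Dicer1 (log2 2.21, SE 0.21), the spliceosomal Snrnp200 (log2 1.5, SE 0.11) and Helz (log2 1.22, SE 0.16) led, and the translation initiation factors Eif4a1 (log2 -0.78, SE 0.08) and Eif4a2 (log2 -0.71, SE 0.10) were lower. With the length trend removed 2 of the 17 were higher and 2 lower. Helz then no longer passed (log2 0.16), and in young pools its value was log2 -0.13. These lists were chosen with results of the same data in view and carry no test as lists. Their counts with the length trend removed have no share of all genes beside them.

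Markers of other cell types were measured in the same fractions. Of 8 immature neuron markers 4 were higher and 1 lower in the IP, with a median of 0.37, though their summed level ran from 1740 to 1910 CPM in the IPs and from 2220 to 2630 CPM in the supernatants. Of 6 microglia markers 2 were lower (39.3 to 65.4 CPM in the IPs, 46.4 to 68.9 CPM in the supernatants), and of 8 mature oligodendrocyte markers 1 was lower (2900 to 7720 CPM in the IPs, 3370 to 6860 CPM in the supernatants). No marker of these 3 lists was at 0 throughout a group. Their part in the members' differences was not tested.

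Within each age the untagged pools gave fewer calls. In adult pools 6 members were higher and 0 lower of 60, against 6.39% and 4.49% of all genes (10.9% either way). In young pools 7 were higher and 7 lower, against 13% and 14.1% of all genes (27.1% either way). Cnot6, Cnot6l, Ddx24, Ddx26b and Dhx9 were higher at both ages. Cnot6, for one, was higher by log2 1.34 (SE 0.23) in adult and by log2 1.63 (SE 0.19) in young pools. With the length trend removed Cnot6l was lost at both ages and Dhx9 in young pools. With the pool as a block as well, Cnot6 and Ddx26b were also lost in adult pools, which left Ddx24 as the one of these 5 higher at both ages. Dhx36 was higher besides in adult pools, and Cnot1 and Ddx6 in young pools, where Cnot7, Ddx4, Ddx11, Ddx25, Ddx39b, Ddx47 and Ddx50 were lower. With the pool as a block Ddx4 and Ddx11 no longer passed in young pools. Ddx4 had 0 counts in the 3 young IPs and 0.122 to 1.31 CPM in the young supernatants, near the floor, so no fold is given. The 6 adult calls rest on 2 pools, and without adult supernatant 1 none was left, without adult supernatant 2 there were 3. For the adult decreases 0 passed in edgeR and 2 in DESeq2. An unadjusted p under 0.05 was found in adult pools for 16 of 60 members of either direction, against 4206 of the 16361 genes tested. The young decreases fell to 2 without young supernatant 1 and to 3 without young supernatant 2, with 4 without young supernatant 3 or adult supernatant 2.

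The difference between ages in the ratio of IP to supernatant was tested as an interaction. It passed for 0 members and for 0 genes in all (0% of 16361) in edgeR, and for 0 members in DESeq2 and in limma voom. An unadjusted p under 0.05 was found for 4 members and 1068 genes. For Ddx25 the difference was log2 0.60 (SE 0.17, adjusted p = 0.647), with IPs of 99.0 and 106 CPM in adults and of 70.4 to 78.0 CPM in young pools. Ddx21, a nucleolar helicase, differed by log2 2.27 (SE 0.68, adjusted p = 0.734), with 29.5 and 11.6 CPM in the adult IPs, against 3.04 to 6.92 CPM in the young ones. Ddx4 and Ddx60, the remaining pair, were at 0 in the 3 young IPs, and in the adult ones Ddx4 had 2.28 and 0.206 CPM and Ddx60 1.36 and 0 CPM.

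The second comparison asked what changed between day 21 and adulthood in the supernatants of 10 pools: untagged pools 1 and 2, the GFP-positive pool and earlier-series pools 3 and 4 of adults, and untagged pools 1, 2 and 3 and earlier-series pools 1 and 2 of young mice, in the order of the values below. No genotype was shared between the ages among the untagged and GFP-positive pools, so age and genotype cannot be told apart in them. Only the earlier-series pools had the same genotype at both ages. Among the members 0 of 60 were higher and 2 lower (3.33%), against 4.2% and 5.22% of the 15938 genes tested (9.42% either way). The members' median was 0.01, the same as over all genes. In DESeq2 5 members were lower and 0 higher, with no share of all genes beside them. An unadjusted p under 0.05 was found for 10 of 60 members, against 3937 of the 15938 genes tested.

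Cnot7 was the clearest difference. It had 126, 114, 123, 123 and 120 CPM in the 5 adult supernatants, against 140, 154, 145, 151 and 149 CPM in the 5 young ones. All adults were below all young pools (0.820-fold, log2 -0.29, SE 0.06, adjusted p = 0.0117). Dhx32, a DEAH-box protein of little known function, had 64.9, 49.0, 60.9, 64.8 and 68.0 CPM in the 5 adult supernatants, against 70.6, 68.4, 74.2, 89.3 and 76.5 CPM in the 5 young ones. Again the ages did not overlap, the highest adult being 68.0 and the lowest young 68.4 CPM (0.810-fold, log2 -0.30, SE 0.09, adjusted p = 0.0415). In 6.24% of all genes the ages did not overlap either. Dhx32 overlaps Bccip on the opposite strand.

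The decrease of Cnot7 passed in each of 10 fits that left out 1 pool. That of Dhx32 was lost in 8 of them, all but the fits without untagged adult pool 1 and earlier-series young pool 2. Split by origin, the log2 change of Cnot7 was -0.26 in the new pools (adjusted p = 0.141) and -0.31 in the earlier-series pools (adjusted p = 0.341), and that of Dhx32 was -0.27 and -0.32 (adjusted p = 0.236 and 0.406). With the earlier-series libraries in place of the repeats both passed (Cnot7 log2 -0.23, adjusted p = 0.0358; Dhx32 log2 -0.30, adjusted p = 0.0346).

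Cnot8, the paralog of Cnot7, showed no such difference (log2 0.10, SE 0.06). Cnot6 averaged 49.8 ± 4.27 CPM in adult and 42.8 ± 2.94 CPM in young supernatants (SD, n = 5 each), a difference that did not pass (log2 0.21, SE 0.08, adjusted p = 0.117). The remaining subunits, Cnot1 (-0.03), Cnot2 (-0.07), Cnot3 (-0.04), Cnot4 (-0.14), Cnot6l (-0.16) and Cnot10 (0.18), did not pass on the log2 scale. Dhx9 averaged 25.7 ± 2.00 CPM in adult and 30.6 ± 3.94 CPM in young supernatants (log2 -0.25, SE 0.09, adjusted p = 0.0882), and Ddx58 3.71 ± 0.679 and 2.67 ± 0.532 CPM (log2 0.48, SE 0.21, adjusted p = 0.178). Neither passed.

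**Figure D3:**
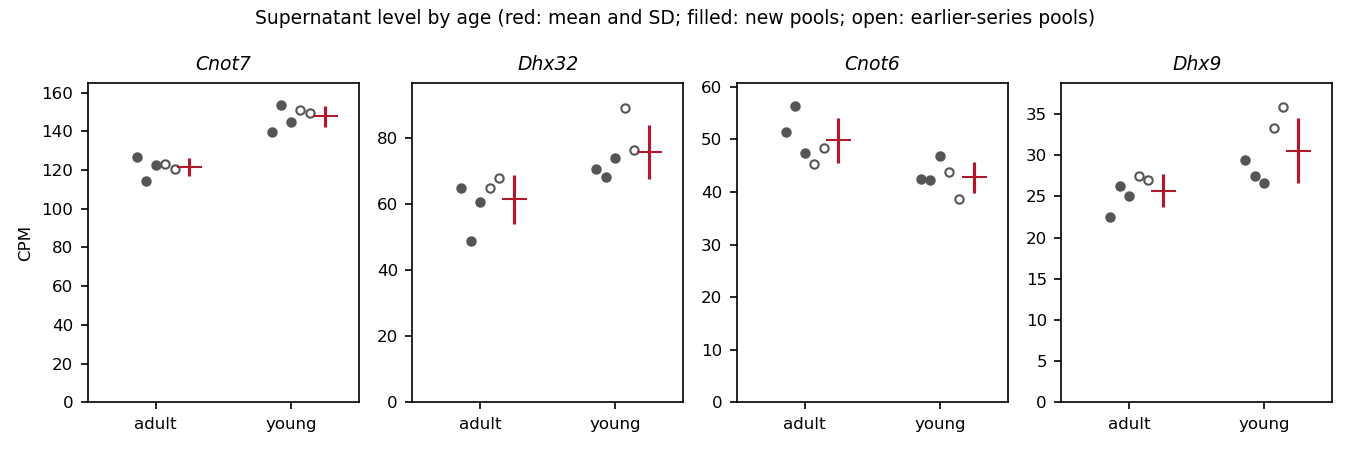
CPM (y axis, from 0) of Cnot7, Dhx32, Cnot6 and Dhx9 in the supernatants of 5 adult (left) and 5 young (right) pools, with mean and SD in red. Adults lie below all young pools for Cnot7 and Dhx32 and overlap with them for Cnot6 and Dhx9.

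Of the decay partners 3 of 34 were lower in adults and 0 higher, beside 5.22% and 4.2% of all genes: Lsm1 (log2 -0.45, SE 0.09), Pabpc1, the main cytoplasmic poly(A)-binding protein gene (log2 -0.31, SE 0.07), and Eif2c2, which encodes AGO2 (log2 -0.28, SE 0.07). None of the 17 other helicases passed, with 2 at an unadjusted p under 0.05, beside 3937 of the 15938 genes tested. Of the 8 mature oligodendrocyte markers 3 were lower in adults, with a median of -0.59 and summed levels of 2470 to 5320 CPM in adult and 4450 to 6860 CPM in young supernatants, and none was at 0. Of the 8 immature neuron markers 2 were lower (median -0.09, summed levels of 1900 to 2440 CPM in adult and 2220 to 2630 CPM in young supernatants). Of 6 microglia markers 1 was higher (median 0.36), as was 1 of 6 astrocyte and 1 of 8 preoptic markers. Their part in the lower Cnot7 and Dhx32 was not tested.

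The third comparison set the repeat libraries against the earlier-series libraries of the same 4 pools. Of 60 members 11 were higher and 14 lower (41.7%), against 15% and 16.1% of the 16117 genes tested (31.1% either way). The sets did not overlap in 16 of 60 members, against 15.7% of all genes. Since both libraries of a pair came from the same pool, p-values here refer to the spread between repeats and not between animals.

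Dhx9 had 27.5, 27.0, 33.3 and 35.9 CPM in the repeat libraries of adult pools 3 and 4 and young pools 1 and 2, against 7.81, 8.69, 10.3 and 11.7 CPM in their earlier-series libraries. Every pool was higher in its repeat by log2 1.62 to 1.82 (3.20-fold, log2 1.68, SE 0.09, adjusted p = 1.1e-08). Cnot6l had 20.8, 21.4, 25.1 and 22.5 CPM in the repeats, against 6.44, 6.51, 9.78 and 7.84 CPM in the earlier-series libraries (2.94-fold, log2 1.55, SE 0.11, adjusted p = 1.29e-07). Its lowest repeat was above its highest earlier-series value. Ddx6 had 84.5, 85.2, 90.0 and 73.2 CPM in the repeats, against 33.2, 31.8, 30.6 and 26.5 CPM in the earlier-series libraries (2.70-fold, log2 1.44, SE 0.06, adjusted p = 9.08e-10). Cnot6 had 45.4, 48.4, 43.7 and 38.7 CPM in the repeats, against 20.0, 21.9, 22.4 and 18.1 CPM in the earlier-series libraries (2.12-fold, log2 1.08, SE 0.08, adjusted p = 2.02e-07). In all 4 genes the pools shifted together and the sets stood apart.

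The 4 steepest decreases were smaller. Dhx34 had 10.4, 9.70, 10.7 and 11.2 CPM in the repeats, against 14.3, 16.0, 15.2 and 16.9 CPM in the earlier-series libraries (0.669-fold, log2 -0.58, SE 0.11, adjusted p = 0.000614). Dhx30 had 106, 126, 136 and 121 CPM in the repeats, against 150, 173, 172 and 163 CPM in the earlier-series libraries (0.736-fold, log2 -0.44, SE 0.05, adjusted p = 5.52e-06). Cnot3 had 42.1, 41.4, 38.9 and 48.5 CPM in the repeats, against 57.3, 58.9, 51.5 and 57.9 CPM in the earlier-series libraries (0.750-fold, log2 -0.41, SE 0.07, adjusted p = 0.000218). These 3 did not overlap between the sets. Dhx16, a splicing helicase, averaged 20.2 ± 3.16 CPM in the repeats and 27.1 ± 5.61 CPM in the earlier-series libraries (SD, n = 4 each), with overlap (log2 -0.43, SE 0.09, adjusted p = 0.00135). Without the pool as a block Dhx16 no longer passed (adjusted p = 0.0639), nor did Cnot1 (log2 0.30, adjusted p = 0.0709), and the counts were 6 higher and 5 lower.

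**Figure D4:**
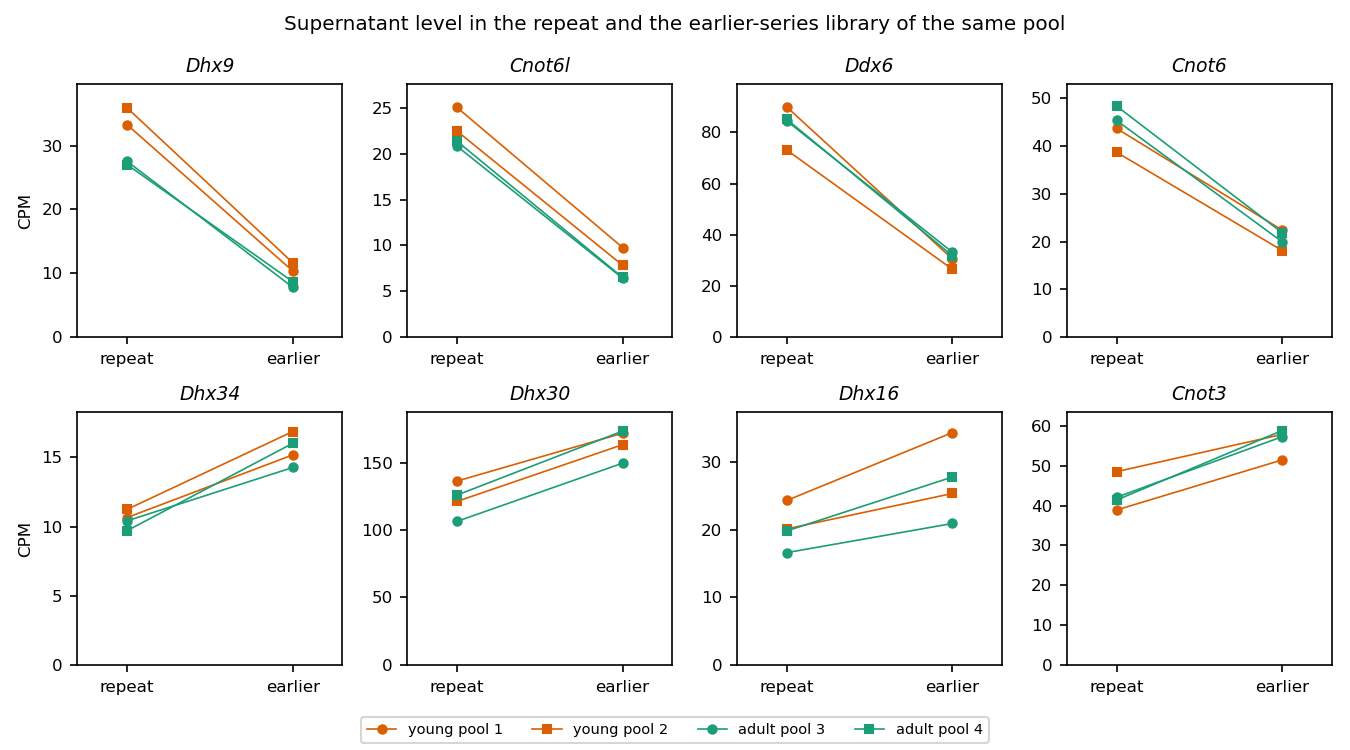
CPM (y axis, from 0) of the 8 members with the steepest change, in the repeat (left) and the earlier-series library (right) of the same 4 pools, 1 line per pool. Dhx9, Cnot6l, Ddx6 and Cnot6 were higher in every repeat and Dhx34, Dhx30, Dhx16 and Cnot3 lower.

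By role, 4 of 5 members of transcription and RNA processing were higher in the repeats and 1 lower (Ddx1), and among the deadenylases 3 of 4 were higher, Cnot7 by log2 0.22 (SE 0.05). Over all genes 15% were higher and 16.1% lower, the shares to hold beside each count by role. Of 10 splicing helicases 1 was higher, Ddx23, which is known from the tri-snRNP (log2 1.07, SE 0.19, adjusted p = 0.000488), and 4 were lower. Ddx23 was picked out after its values were seen, and its levels were low, at 5.89, 5.88, 4.38 and 5.46 CPM in the repeats, against 2.87, 3.42, 1.43 and 2.85 CPM in the earlier-series libraries. Of 16 ribosome assembly helicases 1 was higher and 5 lower, Ddx24 and Ddx54 the most (log2 -0.38 and -0.41). All 3 helicases of decay and translation passed, Ddx6 as higher, Dhx34 and Dhx29 as lower. Calls for 13 of the 25 remained in every fit that left out 1 of the pools: Cnot6, Cnot6l, Cnot7, Ddx6, Ddx23 and Dhx9 as higher, and Cnot3, Ddx24, Ddx51, Ddx54, Dhx16, Dhx30 and Dhx34 as lower. The decreases numbered 9 without young pool 2, adult pool 3 or adult pool 4. Cnot1 was lost without any of these 3 pools.

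GC content moved with the difference between the sets. Over 13828 genes the rank correlation of the log2 change with GC content was -0.503, and over 57 members it was -0.748, again a description across genes of the same libraries. In the lowest of 4 bands of GC content, 8 of 17 members were higher in the repeats (34.6% of all genes in it), and in the highest band 7 of 11 were lower (40.3%). Cnot6l has 37.6% GC, Cnot6 39.8%, Ddx6 43.4% and Dhx9 44.6%. Dhx34 has 59.6%, Dhx16 57.9%, Cnot3 57.3% and Dhx30 55.9%. Ddx23, with 54.1%, stood apart from that order.
With the GC trend of each library removed, a choice also made after seeing the data, 6 members were higher and 10 lower. Here too no share of all genes stands beside the counts. Dhx9 (log2 1.55), Ddx6 (1.28), Cnot6l (1.24) and Cnot6 (0.83) passed with adjusted p of 5.2e-09, 4.98e-10, 4.6e-07 and 1.1e-06, while Cnot7 (-0.01, adjusted p = 0.942) and Cnot1 (0.21, adjusted p = 0.101) did not. How the preparation of the sets differed is not given in the sources used here, and its part in these values was not tested.

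Members that were higher in the untagged IP and members that were higher in the repeats came from fits that share no library, and the lists overlapped. The shared 6 were Cnot1, Cnot6, Cnot6l, Ddx6, Dhx36 and Dhx9, or 54.5% of the 11 in each list. Over all genes 673 were shared, or 26% of the IP list and 27.9% of the list of the repeats. Ddx24 and Ddx42 were higher in the IP and lower in the repeats (18.2% of the IP list and 14.3% of the list of the repeats), and so were 577 of all genes (22.3% of each list). Cnot7 was lower in the IP and higher in the repeats (16.7% and 9.09%), and so were 734 of all genes (28.3% and 30.4%). The IP and the supernatants it was compared with were all new libraries. The cause of the overlap between the lists was not tested.

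Of the decay partners 11 were higher and 6 lower in the repeats, led by Rc3h1 (log2 1.04, SE 0.09), a Roquin gene, Eif2c2 (log2 1.03, SE 0.06) and the decapping enzyme Dcp2 (log2 1.00, SE 0.11), with Edc4 (log2 -0.60, SE 0.07), Zfp36l2 (log2 -0.41, SE 0.09) and Edc3 (log2 -0.22, SE 0.06) lowest among those with a mean log2 CPM of at least 3. Of the 17 other helicases 4 were higher and 3 lower, Ascc3 (log2 0.73, SE 0.13) among the highest, Skiv2l (log2 -0.42, SE 0.06) and Upf1 (log2 -0.28, SE 0.07) among the lowest. The decay partners had 32.4% higher and 17.6% lower and the other helicases 23.5% and 17.6%, against 15% and 16.1% of all genes.

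In the GFP-positive IP, the sample enriched for GnRH neurons, there was 1 library and so no test. Counted were members at least 2-fold from the mean of the 2 adult untagged IPs and beyond all 5 untagged IPs, with TMM scaling over these 6 libraries. That held for 1 higher and 2 lower of 59 members, against 4.99% and 4.55% of 16586 genes (9.53% either way). Ddx58 was higher, at 5.25 CPM against at most 4.05 CPM in an untagged IP, which is a small gap. Dhx34 was lower at 4.18 CPM, against 4.39 to 29.2 CPM in the untagged IPs. Ddx26b was lower at 9.50 CPM, against 17.7 to 25.1 CPM, and stood the clearest of these 3 from all the untagged IPs.

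With a smaller step, 21 of 59 members (35.6%) lay above all 5 untagged IPs, against 18.6% of all genes, and 3 below them, against 14.6%. Dhx32 was at 109 CPM (60.5 to 80.5 CPM in the untagged IPs), Ddx47 at 83.1 CPM (34.8 to 54.8 CPM), Ddx25 at 136 CPM (71.9 to 109 CPM) and Dhx9, below them, at 39.5 CPM (46.4 to 61.7 CPM). Among the CCR4-NOT subunits, Cnot8 (121 CPM, untagged IPs 81.5 to 113), Cnot2 (82.2, untagged IPs 59.1 to 74.9), Cnot10 (53.1, untagged IPs 26.2 to 48.7) and Cnot3 (46.9, untagged IPs 25.6 to 45.2) lay above them. Cnot6, Cnot6l, Cnot7 and Cnot1 lay within the range of the untagged IPs, with log2 ratios to the adult mean of -0.15, -0.05, -0.07 and -0.03. Scaled over all 20 libraries, the members summed to 3723 CPM in the GFP-positive IP, against 3203 to 3462 CPM in the untagged IPs.

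In coordinates of GRCm38, the build that the files use under its other name mm10, Cnot6 lies on chromosome 11 from 49671503 to 49712723, Cnot6l on chromosome 5 from 96070333 to 96164171 and Cnot7 on chromosome 8 from 40492540 to 40515847, all on the minus strand. Ddx6 lies on chromosome 9 from 44604892 to 44640731 on the plus strand, and Dhx9 on chromosome 1 from 153455758 to 153487660, Ddx24 on chromosome 12 from 103407982 to 103425830 and Ddx25 on chromosome 9 from 35536647 to 35558528 on the minus strand. The counts span whole genes, so they do not say which exons or untranslated regions the reads came from.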

How the data were processed

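The deposited table held raw counts of reads per gene symbol, which were whole numbers and not normalised by the authors. Per the submitters' processing notes, the build was mm10 and the tools included HTSeq 0.6.1, TopHat2 2.0.13, Bowtie2 2.2.1, DESeq2 1.14.1, Cuffdiff 2.1.1, FastQC 0.11.3 and Cufflinks. Their roles, the gene annotation and the strand setting are not given in the sources used here. Libraries were made from DNase-treated RNA with the SMARTer ultra-low kit, version v4, per the labels' protocols. Libraries held 27745296 to 50517581 counts, and a floor of 3 counts covers counting error only. Pools, which the labels number as biological replicates, were taken as replicates, so p-values measure the spread between pools.

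Counts were tested with edgeR 4.0.16 (glmQLFit, TMM, filterByExpr at a minimum count of 10) in R 4.3.3, over all genes. A fit of 10 untagged libraries had 4 group means (6 residual degrees of freedom), a fit of 10 second-set supernatants had age and pool origin (7), and a fit of 8 libraries had pool and set (3). SEs are the size of the log2 change over the square root of its F value. Alternatives used limma 3.58.1 voom, DESeq2 1.42.0, other filters and scalings, a replicate block and leaving out each library. The tests were also run on counts simulated from the fitted trend of the spread. Those counts held no pool effects and no trend with length or GC content. That run therefore does not show how the tests perform on the real libraries. IP and supernatant with the same number are fractions of the same pool, so the numbers pair them; their deviations from the group means correlated at 0.102 each (adult) and at 0.169, 0.113 and 0.284 (young).

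The members, the lists and the tests were chosen with earlier results of these data known. Named were all CCR4-NOT subunits, up to 8 helicases in each direction past the threshold with a mean log2 CPM of at least 3 and no overlap between groups, for the sets the 4 largest changes in each direction, of the other lists up to 3 in each direction, and a fixed set of helicases for their levels; other members were named after their values were seen. Lengths, GC content, coordinates and coding sequences came from GENCODE vM21 for 98.4% of the genes in the table and for all 61 members (the longest transcript; for codons that with the longest coding sequence). The codon search was settled on exact residues after a looser pattern had been tried. The series text names the GFP-positive supernatant in inconsistent ways, and the titles were followed. GFP-positive ratios by pool used log2 CPM with a prior count of 0.5. Some genes that this rule names are not reported here.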

Additional observations from a re-analysis of the deposited data

Results flagged for a closer look

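Among 54 pairs of a CCR4-NOT subunit or named helicase and a group of 5 libraries (untagged IPs, untagged supernatants, adult supernatants or young supernatants), 3 held a sample set far apart from the rest of its group; chance marks about 1 in 20 such groups. Cnot3 was at 31.2 CPM in the supernatant of untagged adult pool 2, against 41.4 to 44.0 CPM in the 4 other adult supernatants. Cnot3 was at 48.5 CPM in the repeat library of earlier-series young pool 2, against 38.6 to 40.9 CPM in the 4 other young supernatants. Cnot2 was at 68.1 CPM in the supernatant of untagged young pool 1, against 75.2 to 77.7 CPM in the 4 other young supernatants. Neither gene had passed in the comparison of ages.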

How the results depend on the processing

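Counts of members higher and lower in the untagged IP (11 and 6 over both ages, 6 and 0 in adult, 7 and 7 in young pools) moved with the tool, the length trend and the libraries. DESeq2 gave 18 higher over both ages, 10 higher and 2 lower in adult and 11 lower in young pools, and all calls of edgeR at both ages and within each age were among its calls. With the length trend removed, 4 were higher over both ages, 1 lower in adult and 3 higher in young pools; with the replicate block as well, 4 were higher over both ages, 2 higher and 1 lower in adult, and 3 higher and 4 lower in young pools. Leaving out 1 library gave 7 to 13 higher and 2 to 6 lower over both ages, 0 to 7 higher and 0 to 1 lower in adult, and 2 to 9 lower in young pools. The replicate block gave 15 higher and 6 lower over both ages. It ended the call of Ddx50 and added Ddx5, Ddx59, Dhx30, Dhx33 and Dhx8; in adult pools it added Ddx46, and in young pools it ended the calls of Ddx4 and Ddx11 and added Ddx59 and Dhx33. It changed no other call.

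Members lower in adult supernatants (2) numbered 5 in DESeq2, 0 in the new pools alone, 0 in the earlier-series pools alone, 1 with no origin term and 1 to 2 when 1 pool was left out. In the repeats (11 higher, 14 lower), 9 were lower with the length trend removed, 9 to 13 when 1 pool was left out, 6 were higher and 5 lower with no replicate block, and 6 were higher with the GC trend removed. With a 1.5-fold limit 4 members were higher in the GFP-positive IP. Counts of members under these alternatives, here and above, have no share of all genes beside them and describe the members alone.

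Signs turned for several values, the call of Helz in young pools among them. With the GC trend removed the change in the repeats was -0.01 for Cnot7, -0.05 for Dhx36 and -0.05 for Ddx5, which had all passed without it. Of values that had not passed, the IP change over both ages was -0.11 for Ddx17, -0.08 for Dhx29 and -0.11 for Dhx34 with the length trend removed. When 1 library was left out, the log2 change in the IP over both ages ran from -0.10 to 0.01 for Cnot10, from -0.22 to 0.04 for Cnot2 and from -0.38 to 0.04 for Cnot3. It ran from -0.32 to 0.21 for Cnot2 and from -0.63 to 0.21 for Cnot3 in adult pools, and from -0.21 to 0.01 for Cnot3 in young pools. By age in the supernatants it ran from -0.07 to 0.02 for Cnot1, from -0.13 to 0.02 for Cnot2 and from -0.09 to 0.04 for Cnot3. With the length trend removed, Cnot8 gave 0.02, Dhx36 -0.12 and Helz -0.13 in young pools (0.02, -0.13 and -0.16 with the block as well), and Cnot1 gave 0.00 in adult pools (-0.03 with the block). Cnot2 in adult pools gave 0.04 with the GFP-positive supernatant in place of adult supernatant 1. By age, Cnot1 gave 0.03 in the new pools alone, Cnot10 0.00 in the earlier-series pools alone and Cnot3 0.02 with the earlier-series libraries. The cause of these moves was not tested. At 0.0594 to 0.108 CPM per 3 counts, Ddx4, Ddx11, Ddx43 and Ddx60 lay too near the floor in most IPs for a fold change to be read.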
